A study of Rattus norvegicus with 60 samples.

Results

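The messenger RNAs of the cytosolic ribosomal proteins were followed in liver of F344/N rats, all male, dosed by gavage on 5 days in a row with N,N-dimethyl-p-toluidine (DMPT) or p-toluidine. Members were chosen by a rule on the symbol, with earlier results of these data known. They are the genes with a probe set that carries exactly 1 symbol. That symbol begins with Rpl or Rps and a number or is Rplp0 or Rpsa, without the Rps6k kinases and symbols ending in l1. This gave 47 genes out of 14217 genes on the array, 16 named for the small subunit and 31 for the large subunit. They include 42 genes of the core ribosome, 3 paralogs (Rps27l, Rpl3l and Rps4y2) and 2 genes annotated as pseudogenes (Rpl37-ps2 and Rps4x-ps1). Where a gene had several such probe sets, the one with the highest mean over all 60 arrays stood for it. Rplp1 shares its probe set with other symbols and so is no member, though that probe set is counted below among those with several symbols. Rplp2 was not analysed here.

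Both chemicals are aromatic amines, and DMPT is the N,N-dimethyl derivative of p-toluidine. Each chemical had 6 groups of 5 arrays: vehicle (corn oil, 0 mg/kg) and 1, 6, 20, 60 and 120 mg/kg per day. The rats were 5 to 6 weeks old at the start and were housed 2 to a cage, and all arrays are of liver. Which arrays come from cage mates is not in the labels, so each p-value reflects only how far these arrays scatter.

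A cytosolic ribosome consists of a small subunit, which reads the messenger RNA, and a large subunit, which joins amino acids. Its proteins are made in matched amounts, and their messenger RNAs belong to the most abundant in liver cells, which secrete much of the plasma protein. Most of these messenger RNAs begin with a C followed by a run of pyrimidines, the terminal oligopyrimidine (TOP) tract, through which mTOR signalling and the protein Larp1 set how well they are translated. That control acts largely on translation, so an array that measures messenger RNA level does not read it.

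Sequences around the annotated gene starts (RefSeq, assembly GRCr8) were found for 38 of the 47 genes and were searched for pyrimidine runs. In each line the first 15 bases lie before the start and the last 15 after it, 5′ to 3′ on the strand of the gene, and capitals mark the longest run of at least 6 C or T bases that begins with C and touches the 10 bases on either side of the start. The set holds the members with the largest rise and the largest falls at 120 mg/kg of DMPT that have an entry, with Rplp0 and Rps6 for comparison.
Rplp0: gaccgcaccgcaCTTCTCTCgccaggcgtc
Rps15: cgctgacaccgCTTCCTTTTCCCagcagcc
Rps6: gacgCCTCCTaggcggtcggctgtgtcaag
Rps27l: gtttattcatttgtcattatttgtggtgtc
Rpl3l: gacctctggtgcctggtggggaggtccctt
These windows lie at chr12:46718376-46718405 (minus strand) for Rplp0, chr7:10068101-10068130 (minus) for Rps15, chr5:106420526-106420555 (minus) for Rps6, chr8:76443643-76443672 (plus) for Rps27l and chr10:14258431-14258460 (plus) for Rpl3l. Rplp0 and Rps15 carry the run across the start, Rps6 carries a short one upstream of it, and the paralogs Rps27l and Rpl3l carry none in this window. The paralog Rps4y2 does carry a run, of 8 bases. Only the strand of the gene was searched. Whether an annotated start is the first base of the messenger RNA was not checked, so such a run is not shown to be a TOP tract. Such a run was present in 27 of the 38 members (71.1%), against 21.6% of the 18999 protein-coding genes in the same table. Among the 35 core genes with a sequence it was present in 26.

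Before the results, 3 properties of the arrays matter. Array medians were 3.54 to 3.62 (log2 expression value) for DMPT and 2.73 to 2.81 for p-toluidine, from which separate normalization of the 2 chemicals is inferred, so only changes against the own vehicle are set side by side. Of the 30 DMPT arrays, 5 had a narrower spread of values than the rest (SD over probe sets of 2.15 to 2.20 against 2.23 to 2.30): replicate 3 at 6 mg/kg, replicates 3 and 5 at 60 mg/kg, and replicates 2 and 5 at 120 mg/kg, with none in the vehicle group. The summed level of the 11 hepatocyte markers lay between 15.7 and 16.1 (log2) on every vehicle and 120 mg/kg array, and albumin, apolipoproteins and other plasma proteins were among them, as the tissue label has it. In bulk liver, fewer cells of a type and less RNA per cell cannot be told apart.

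The 47 genes split into a bright and a dim set. For 38 genes the probe set had a mean above 8 over the 60 arrays, all core genes, led by Rps29, Rpl7a and Rpl27a with means of 11.6, 11.3 and 11.2. The other 9 comprise 4 core genes (Rpl28, Rpl30, Rps13 and Rpl39, with means of 1.15, 1.27, 2.31 and 4.15) and the paralogs and pseudogenes, of which Rps27l (5.78) and Rps4y2 (5.28) were the brightest and Rps4x-ps1 (0.72) the dimmest. Brightness depends on the probes as well as the transcript, so these means rank probe sets and not genes. The median SD of the bright members within a group was 0.0909 for DMPT and 0.112 for p-toluidine, against 0.148 and 0.149 over all probe sets. Over the probe sets above the median brightness it was 0.144 and 0.152. Probe sets as bright as these members were not compared, so a small SD is not shown to be particular to them.

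Most cytosolic ribosomal protein messenger RNAs did not pass the test after DMPT at any dose. A gene is said to have risen or fallen when limma gave a Benjamini-Hochberg adjusted p of at most 0.05 over all 31042 probe sets. No member passed at 1 mg/kg, where 0% of all probe sets did, or at 6 mg/kg (0.168%, with 0.0548% higher and 0.113% lower), with 1 and 2 members at an unadjusted p under 0.05. At 20 mg/kg 1 member rose and 2 fell (all probe sets: 2.61%, with 1.56% higher and 1.05% lower), at 60 mg/kg 1 rose and 2 fell (5.2%, with 1.93% higher and 3.26% lower), and at 120 mg/kg 2 rose and none fell (9.8%, with 4.27% higher and 5.53% lower). The median change of the 47 genes was -0.07, 0.04, -0.09, -0.07 and 0.03 on the log2 scale from the lowest to the highest dose, against medians between -0.01 and 0.01 over all probe sets. The size of these shifts did not follow the dose.

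**Figure D1:**
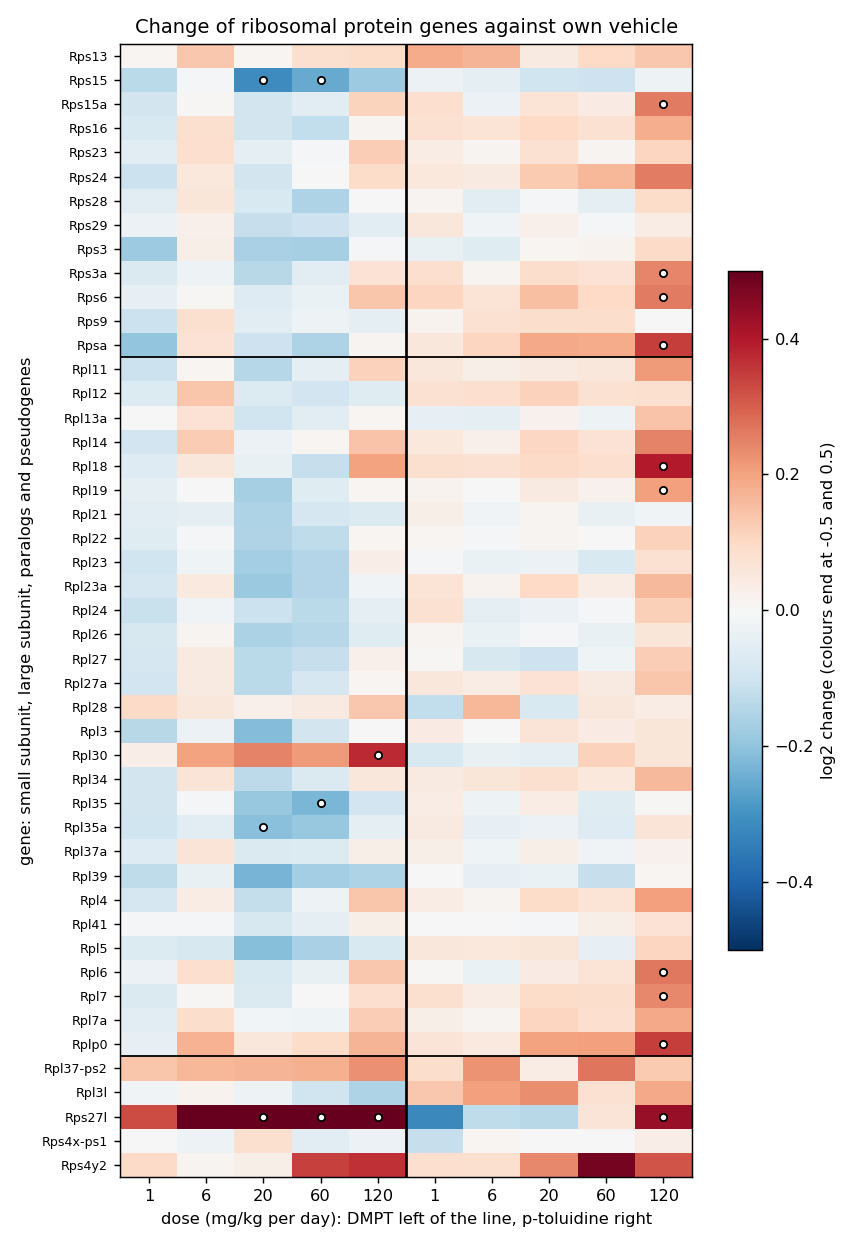
Log2 change of each of the 47 genes against the vehicle group of the same chemical, by dose in mg/kg per day (DMPT left, p-toluidine right), with core small subunit genes above, core large subunit genes below them and paralogs and pseudogenes at the bottom. Colours end at -0.5 and 0.5, circles mark changes with an adjusted p of at most 0.05 (limma), and the column of p-toluidine at 120 mg/kg holds 10 circles while no DMPT column holds more than 3.

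The gene with the largest response was Rps27l, a paralog of the small subunit protein Rps27 that is known as a target of the tumour suppressor p53. Its log2 values on the 5 DMPT vehicle arrays were 5.11, 5.20, 5.24, 5.42 and 5.49. At 1 mg/kg they were 5.94, 5.71, 5.86, 5.36 and 5.22, and at 6 mg/kg 5.22, 5.55, 5.59, 6.23 and 6.61. Both low dose groups overlapped the vehicle arrays, and at 6 mg/kg 2 arrays stood well above the other 3.

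At 20 mg/kg the Rps27l values were 6.40, 6.48, 6.34, 6.29 and 6.03, at 60 mg/kg 5.56, 6.53, 6.26, 6.71 and 6.65, and at 120 mg/kg 6.94, 7.08, 6.85, 6.96 and 6.55. None of these 3 groups overlapped the vehicle arrays, although replicate 1 at 60 mg/kg came close to them. The change was 1.02 ± 0.20 (log2, standard error, limma, adjusted p = 0.00342) at 20 mg/kg, 1.05 ± 0.20 (adjusted p = 0.00121) at 60 mg/kg and 1.58 ± 0.20 (adjusted p = 1.77e-06) at 120 mg/kg. The mean went from 5.29 to 6.88 at the highest dose, a 3.00-fold rise. Changes at 1 and 6 mg/kg were 0.33 and 0.55 and did not pass (adjusted p of 0.95 and 0.345).

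After p-toluidine, Rps27l values were 5.45, 5.60, 5.54, 5.40 and 5.67 on the vehicle arrays and 6.41, 5.99, 5.72, 5.94 and 5.78 at 120 mg/kg. The groups did not overlap, and the rise was 0.43 ± 0.11 (log2, limma, adjusted p = 0.0094), or 1.35-fold. At 1 mg/kg all 5 arrays (5.13 to 5.28) lay below the vehicle arrays, with a change of -0.32 that did not pass (adjusted p = 0.583). Changes at 6, 20 and 60 mg/kg were -0.13, -0.14 and 0.06, with overlapping groups. With the beta-actin 3′ to 5′ difference as a covariate the 120 mg/kg change was 0.36 and the call was lost (adjusted p = 0.0636). That difference, which widens as RNA is degraded, was 1.52 ± 0.0854 (SD, n = 5) at 120 mg/kg and 1.80 ± 0.147 on the vehicle arrays.

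**Figure D2:**
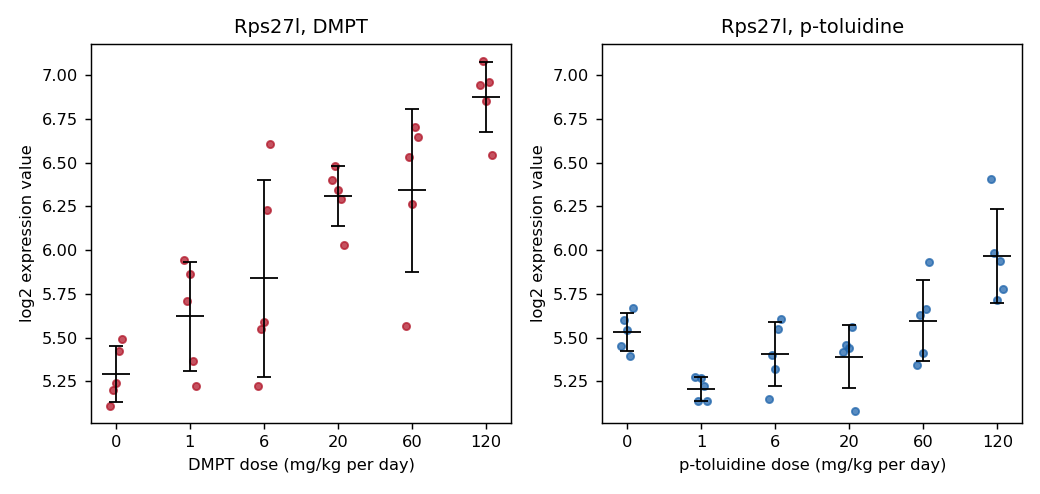
Log2 expression value of Rps27l on each array by dose of DMPT (left) and p-toluidine (right); points are the 5 arrays of a group, and the black line and bars are the mean and SD. The DMPT means climb from 5.29 at vehicle to 6.88 at 120 mg/kg, and the p-toluidine means run from 5.53 to 5.97; levels cannot be compared between the panels.

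Among the core small subunit genes, Rps15 was the member with the clearest fall after DMPT. Rps15 sits in the head of the small subunit and is needed for the late steps of its assembly. Its vehicle values were 10.14, 10.13, 10.22, 10.21 and 10.07. The 20 mg/kg values of 9.83, 9.92, 10.03, 9.83 and 9.61 all lay below them, a change of -0.31 ± 0.07 (log2, limma, adjusted p = 0.0135). At 60 mg/kg the values were 10.07, 9.92, 9.73, 9.87 and 9.93, and at 120 mg/kg 9.95, 10.10, 9.90, 9.95 and 9.97. Both groups touched the vehicle range with 1 array, and the changes were -0.25 ± 0.07 (adjusted p = 0.0348) and -0.18 ± 0.07 (adjusted p = 0.117). Rps15 was the lowest of the 47 genes at 120 mg/kg of either chemical, with -0.03 ± 0.08 after p-toluidine.

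In the large subunit, Rpl35a fell at 20 mg/kg of DMPT and Rpl35 at 60 mg/kg. RPL35A is one of the genes mutated in Diamond-Blackfan anaemia, and Rpl35 lies near the exit of the tunnel through which the new protein leaves. Rpl35a values were 10.06, 10.01, 10.23, 10.12 and 10.03 on vehicle arrays and 9.87, 9.94, 9.95, 9.81 and 9.82 at 20 mg/kg. The groups did not overlap, and the change was -0.21 ± 0.06 (log2, limma, adjusted p = 0.0457). At 60 mg/kg it was -0.19 ± 0.06 and just missed the threshold (adjusted p = 0.0552).

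Rpl35 values were 10.54, 10.48, 10.72, 10.77 and 10.63 on vehicle arrays and 10.51, 10.42, 10.28, 10.43 and 10.36 at 60 mg/kg. Those groups overlapped through a single array, and the change was -0.23 ± 0.07 (log2, limma, adjusted p = 0.0357). The changes of Rpl35 and Rpl35a at 120 mg/kg were -0.10 and -0.05 and did not pass. Without the narrow arrays only Rps27l passed at 60 mg/kg, with 3 arrays left in that group. The count of 3 at 60 mg/kg was 1 without vehicle replicate 3 or 4 or without dose replicate 3, 4 or 5, and the count of 3 at 20 mg/kg was 1 without dose replicate 5. The beta-actin difference was 1.30 ± 0.123 (SD, n = 5) at 20 mg/kg and 1.39 ± 0.200 at 60 mg/kg, against 1.48 ± 0.148 on the vehicle arrays, and its part in these falls was tested only as a covariate, which left 1 fall at 20 mg/kg and 3 at 60 mg/kg.

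Most of the core genes leaned the same small way in these groups. At 20 mg/kg of DMPT 37 of the 38 bright members were below the vehicle mean and 17 had an unadjusted p under 0.05, and at 60 mg/kg 36 were below and 9 had. Their mean over the 38 genes was 10.63 ± 0.0882 (SD, n = 5) on the vehicle arrays, 10.51 ± 0.0829 at 20 mg/kg and 10.54 ± 0.0941 at 60 mg/kg. The arrays of both doses overlapped the vehicle range of 10.54 to 10.75, since they reached up to 10.62 and 10.63. Genes measured on one array share its preparation, so the shared sign is not 38 separate observations.

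The bright members at 120 mg/kg of DMPT were back at 10.66 ± 0.0549, and 24 of 38 lay above vehicle. The second gene that rose there was Rpl30, a large subunit protein. Its probe set is very dim, between 1.20 and 1.37 on the vehicle arrays and at 1.64, 1.97, 1.45, 1.77 and 1.53 at 120 mg/kg. The groups did not overlap, and the change was 0.37 ± 0.10 (log2, limma, adjusted p = 0.0128). It was lost without the narrow arrays (0.32, adjusted p = 0.0572) and without dose replicate 2 (adjusted p = 0.0573), which took the count from 2 to 1. Among the 14217 genes, each taken by its brightest probe set, the Rpl30 mean on the DMPT arrays ranked at 5.07% from the bottom. Rpl30 is also among the symbols of probe sets that carry several symbols, and none of those passed at 120 mg/kg of DMPT. No detection call was used here.

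**Figure D3:**
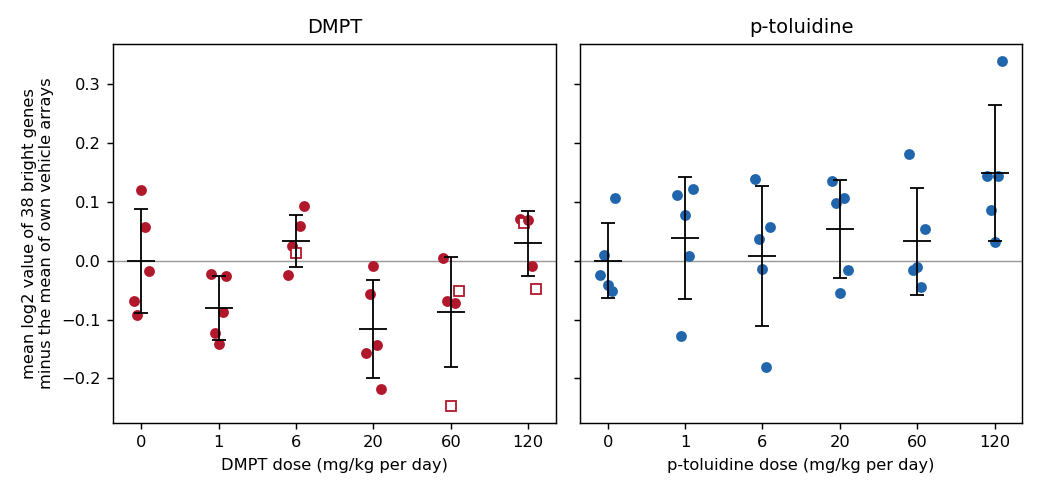
Mean log2 value of the 38 bright members on each array minus the mean of the vehicle arrays of the same chemical, by dose; filled points are arrays, open squares the 5 DMPT arrays of narrow spread, and black lines and bars the mean and SD of a group. DMPT groups lie on both sides of 0 without following the dose, and at 120 mg/kg of p-toluidine all 5 arrays lie above 0, with replicate 5 highest.

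After p-toluidine the picture was flat up to 60 mg/kg and turned upward at 120 mg/kg. No member passed at 1 mg/kg (all probe sets: 0%), 6 mg/kg (0%), 20 mg/kg (0.786%) or 60 mg/kg (4.51%, with 2.12% higher and 2.39% lower), with 1, 1, 3 and 3 members at an unadjusted p under 0.05 by limma. In the highest dose group 10 members rose and none fell, that is 10 of 47, where 10.7% of all probe sets passed and 5.68% rose. The median change was 0.13, with 44 of 47 genes above vehicle, against a median of -0.00089 over all probe sets. All 10 rises were at most 1.35-fold.

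The rises fell on both subunits. In the small subunit, 4 core genes rose besides Rps27l: Rpsa, which also goes by the name laminin receptor, by 0.35 ± 0.09 (log2, limma, adjusted p = 0.00809), Rps6, the substrate of the S6 kinases downstream of mTOR, by 0.26 ± 0.07 (adjusted p = 0.0196), Rps15a by 0.26 ± 0.07 (adjusted p = 0.0166) and Rps3a by 0.24 ± 0.08 (adjusted p = 0.0419). Rpsa went from 9.63, 9.66, 9.66, 9.72 and 9.89 to 10.08, 9.88, 9.92, 10.04 and 10.37, so the vehicle array at 9.89 reached just into the dosed range. Rps6 went from 10.26, 10.19, 10.32, 10.11 and 10.18 to 10.53, 10.43, 10.29, 10.46 and 10.64, with 1 dosed array inside the vehicle range. Rps15a went from 9.68 to 9.75 on the vehicle arrays to 9.82 to 10.15, with no overlap. Rps3a ran from 10.21 to 10.35 on the vehicle arrays and from 10.35 to 10.67 at 120 mg/kg, with a barely separated edge.

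In the large subunit, 5 genes rose. Rpl18 changed most, with 9.31, 9.67, 9.04, 9.41 and 9.46 on the vehicle arrays and 9.77, 9.72, 9.63, 9.76 and 9.99 at 120 mg/kg, a change of 0.40 ± 0.10 (log2, limma, adjusted p = 0.00794). Its groups overlapped through vehicle replicate 2. Rplp0, the base of the stalk that recruits elongation factors and a common reference gene for quantitative PCR, went from 10.13, 10.36, 10.10, 10.15 and 10.58 to 10.61, 10.54, 10.53, 10.55 and 10.82. Vehicle replicate 5 lay within the dosed range, and the change was 0.35 ± 0.10 (adjusted p = 0.0166).

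Rpl6 and Rpl7 are large subunit proteins that bind ribosomal RNA, and Rpl19 forms part of a bridge to the small subunit. Rpl6 rose by 0.26 ± 0.07 (log2, limma, adjusted p = 0.0141), Rpl7 by 0.24 ± 0.07 (adjusted p = 0.0295) and Rpl19 by 0.21 ± 0.06 (adjusted p = 0.0353). Rpl7 (10.26 to 10.35 on vehicle arrays, 10.40 to 10.73 at 120 mg/kg) and Rpl19 (10.71 to 10.86 against 10.91 to 11.06) did not overlap between groups, while Rpl6 did. Singled out after their values were seen, the genes closest above the threshold were Rps24 (0.26, adjusted p = 0.0646), Rpl11 (0.21, adjusted p = 0.0712) and Rpl14 (0.25, adjusted p = 0.0724). Of these, Rpl11 is known, with Rpl5, to bind the p53 regulator Mdm2 outside the ribosome, and Rpl5 changed by 0.11 (adjusted p = 0.602).

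The array replicate 5 of the 120 mg/kg group weighed heavily in this count. Its mean over the 38 bright members was 10.44, against 10.25, 10.19, 10.13 and 10.25 for the other 4 arrays and 10.08, 10.11, 10.06, 10.05 and 10.21 for the vehicle arrays. The group mean was 10.25 ± 0.116 (SD, n = 5) against 10.10 ± 0.0639, and the lowest dosed arrays overlapped the highest vehicle array. Without dose replicate 5 the count was 3, and without vehicle replicate 1 or 4 it was 5. The 3 that remained without dose replicate 5 were Rps27l, Rpl18 and Rpsa, which passed in each of the 10 fits that left out a replicate. Rps15a lost its call in 1 of the 10 fits, Rpl6 in 2, Rps6 in 3, Rplp0 in 4, Rpl7 in 5 and Rpl19 and Rps3a in 7 each. With the beta-actin difference as a covariate the count was 6, with Rpsa, Rps6, Rps15a, Rps3a and Rpl7 among them and Rps24 added, and the median change was 0.14. Fitted with only the vehicle and 120 mg/kg arrays the count was 5, namely Rps27l, Rpl18, Rplp0, Rps15a and Rpsa.

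The symbol rule leaves out 33 probe sets whose annotation gives several symbols, at least 1 of them ribosomal. Of these 33, 5 rose at 120 mg/kg of p-toluidine and none fell (5.68% of all probe sets rose and 5.07% fell), with a median change of 0.14. Rack1, a scaffold protein on the head of the small subunit that the symbol rule does not take in, rose by 0.27 ± 0.08 (log2, limma, adjusted p = 0.034). After 120 mg/kg of DMPT none of the 33 passed (3 at an unadjusted p under 0.05, limma), and Rack1 changed by 0.15 (adjusted p = 0.235).

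Fitting a slope along the ordered doses draws on all 30 arrays of a chemical. For DMPT 2 members had a rising and 1 a falling trend (all probe sets: 14.9%, with 6.3% rising and 8.58% falling), namely Rps27l (0.30 per dose step), Rpl30 (0.07) and Rps15 (-0.04). For p-toluidine 9 members had a rising trend and none a falling one (all probe sets: 14.5%, with 7.43% rising and 7.05% falling). They were Rps27l (0.09 per step), Rps4y2 (0.08), Rplp0 (0.07), Rpsa (0.06), Rpl18 (0.06), Rps24 (0.05), Rpl6 (0.05), Rps6 (0.04) and Rpl7 (0.04). Rps15a, Rps3a and Rpl19, which rose at 120 mg/kg, were not among them.

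The responses to both chemicals were compared directly at each of the 5 shared doses, as the DMPT change minus the p-toluidine change. No member passed at any of them (limma, all probe sets 0% at 1 to 60 mg/kg and 0.00644% at 120 mg/kg), with 1, 1, 17, 3 and 5 members at an unadjusted p under 0.05 from the lowest to the highest dose. Missing the threshold does not show that the chemicals act alike. For Rps27l the difference was 1.16 at 20 mg/kg (95% interval 0.68 to 1.63, adjusted p = 0.0656), 0.99 at 60 mg/kg (0.51 to 1.46, adjusted p = 0.857) and 1.15 at 120 mg/kg (0.67 to 1.63, adjusted p = 0.0986), with DMPT higher each time. The standard error of each was 0.24. Rps27l passed at 20 and 120 mg/kg when DMPT vehicle replicate 5 was left out, at 60 mg/kg without DMPT dose replicate 1, and at 120 mg/kg without DMPT dose replicate 5 or p-toluidine dose replicate 1, which took the count from 0 to 1.

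For the core genes the difference was mostly negative, although none passed. Their mean at 20 mg/kg lay below vehicle after DMPT (10.51 against 10.63) and slightly above it after p-toluidine (10.16 against 10.10), while at 120 mg/kg it was above vehicle after both. Of the 38 bright members, 36 had a negative difference at 120 mg/kg, with a median of -0.11, and at 20 and 60 mg/kg all 38 had, with medians of -0.17 and -0.11. These genes were measured on the same arrays and the doses share their vehicle arrays, so the shared signs are not separate observations. For Rpsa the difference at 120 mg/kg was -0.33 (95% interval -0.62 to -0.05, adjusted p = 0.661), for Rpl18 -0.20 (-0.46 to 0.07, adjusted p = 0.862), for Rpl19 -0.19 (-0.36 to -0.03, adjusted p = 0.657) and for Rplp0 -0.18 (-0.42 to 0.07, adjusted p = 0.877). The intervals of Rpl18 and Rplp0 include 0.

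**Figure D4:**
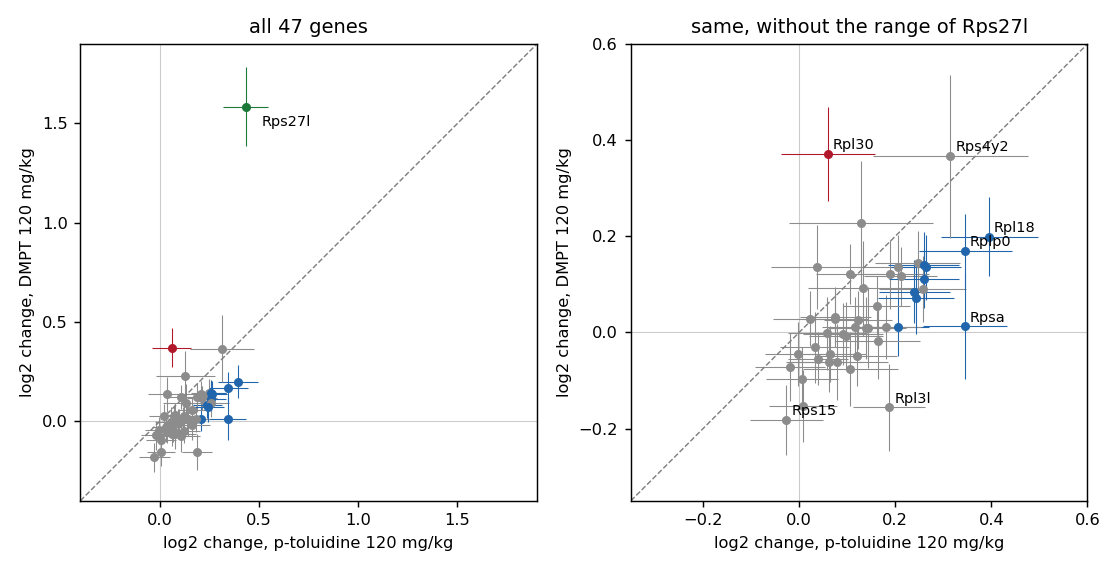
Log2 change at 120 mg/kg of DMPT (vertical) against that at 120 mg/kg of p-toluidine (horizontal) for the 47 genes, bars being standard errors of the limma fit and the dashed line equal change; the right panel enlarges the range without Rps27l. Blue genes rose after p-toluidine only, red after DMPT only, green (Rps27l) after both; most genes lie below the line, and Rps27l lies far above it at 1.58 against 0.43.

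The paralogs and pseudogenes other than Rps27l did not pass at any single dose. Rpl3l, the paralog of Rpl3 that is known from heart and skeletal muscle, is dim here and changed by -0.16 ± 0.09 at 120 mg/kg of DMPT and by 0.19 ± 0.08 at 120 mg/kg of p-toluidine (limma, adjusted p of 0.34 and 0.115). The difference was -0.34 (95% interval -0.58 to -0.11, adjusted p = 0.44). Rpl3 itself, a large subunit protein close to the catalytic centre, changed by -0.00 and 0.06. Rps4y2, a paralog of Rps4x, changed by 0.37 ± 0.17 and 0.31 ± 0.16 (adjusted p of 0.197 and 0.25). The pseudogene Rpl37-ps2 changed by 0.23 and 0.13, and Rps4x-ps1 by -0.03 and 0.03.

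For Rpl7 the 2 probe sets gave different answers. The bright one, with vehicle values of 10.71 to 10.99 on the DMPT arrays and 10.81 to 10.96 at 120 mg/kg, changed by 0.08 ± 0.07. The dim one had vehicle values of 3.45, 3.71, 3.56, 3.72 and 4.41 and values of 5.79, 5.80, 5.74, 5.61 and 5.38 at 120 mg/kg. These groups did not overlap, and the rise was 1.89 ± 0.31 (log2, limma, adjusted p = 9.06e-05), after rises of 1.76 at 20 mg/kg and 1.49 at 60 mg/kg.

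After p-toluidine the dim Rpl7 probe set rose by 0.60 ± 0.18 at 120 mg/kg (limma, adjusted p = 0.0272) and the bright one by 0.24. At 6 mg/kg of DMPT the dim one read 3.84, 4.22, 4.18, 5.63 and 5.59, high on replicates 4 and 5, which were also the arrays with the highest Rps27l values of that group. At 60 mg/kg replicate 1 was the lowest array for both (3.97 for the dim Rpl7 probe set and 5.56 for Rps27l). In the gene table of assembly GRCr8, Rpl7 (chr5:8000446-8003454) is the next gene after Rdh10 (chr5:7969931-7998834), a retinol dehydrogenase gene. On the other side of Rpl7 lies C5h8orf89 (chr5:8008838-8030833). Which transcript the dim probes read was not tested, since probe sequences were not used here.

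**Figure D5:**
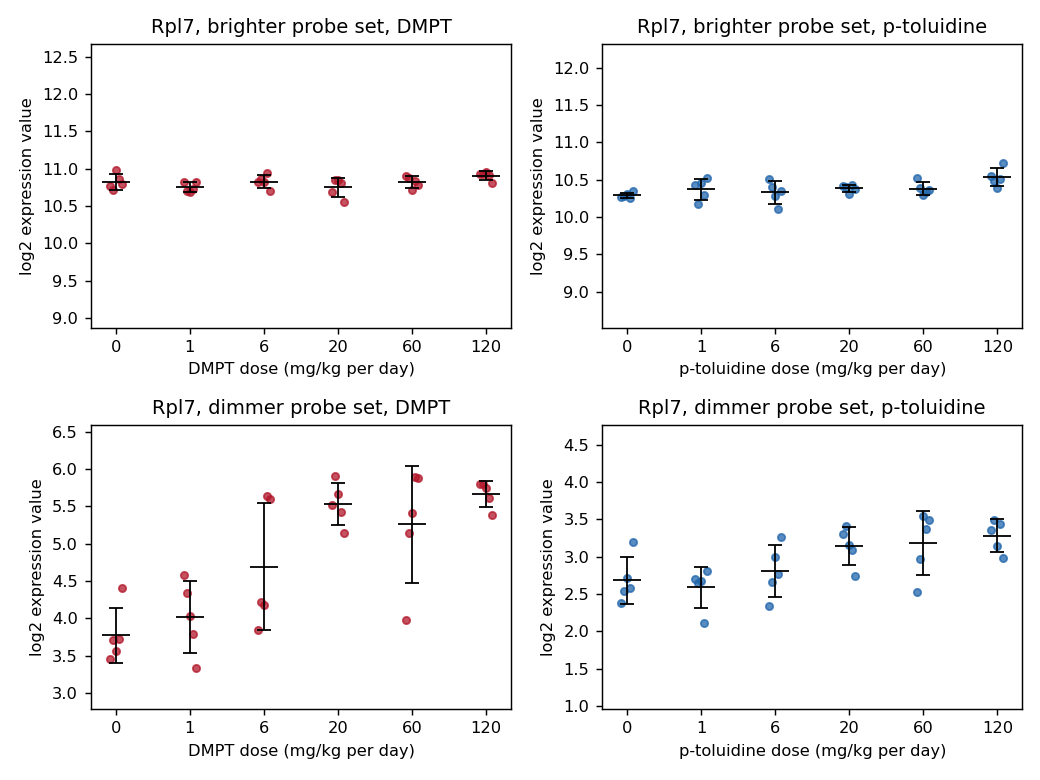
Log2 expression value of the bright (top) and dim (bottom) probe set of Rpl7 on each array by dose of DMPT (left) and p-toluidine (right), points being the 5 arrays of a group and black lines and bars the mean and SD; every panel spans the same height. At 120 mg/kg of DMPT the dim probe set is 1.89 above its vehicle mean while the bright one is 0.08 above.

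Other members with several probe sets differed less. The second probe set of Rpl14, a large subunit protein, rose by 0.34 at 120 mg/kg of DMPT (limma, adjusted p = 0.0116) from a mean of 2.18, where the bright one changed by 0.14. The second one of Rpl3 fell by 0.31 at 20 mg/kg of DMPT (adjusted p = 0.0315). Both further probe sets of Rpsa had a rising trend over the p-toluidine doses (0.06 and 0.04 per step), as its bright one had.

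Genes that build ribosomes are given beside the ribosomal proteins, with no test between the lists. Of 62 ribosome biogenesis genes, 16 fell and none rose at 120 mg/kg of DMPT (5.53% of all probe sets fell), with a median change of -0.13, and 12 fell and none rose at 120 mg/kg of p-toluidine (5.07% fell), with a median of -0.19. At 60 mg/kg 16 fell after DMPT (3.26% fell) and 4 after p-toluidine (2.39%), but without the narrow arrays 6 fell after DMPT. The 120 mg/kg group of DMPT also holds narrow arrays (replicates 2 and 5), and its count without them is not given here. Ddx21, a helicase of the nucleolus, changed most, by -0.67 ± 0.11 after 120 mg/kg of DMPT (limma, adjusted p = 0.00015) and by -0.63 ± 0.10 after p-toluidine (adjusted p = 2.31e-05). Utp20 and Wdr43, factors of small subunit processing, fell by 0.44 and 0.45 after DMPT, and Heatr1 and Polr1b, which serve transcription by RNA polymerase I, fell by 0.44 and 0.43 after p-toluidine and by 0.29 and 0.38 after DMPT.

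The mitochondrial ribosome, a separate machine that translates the messenger RNAs of mitochondrial DNA, also had negative medians. Of its 73 genes 22 fell and 1 rose at 120 mg/kg of DMPT and 10 fell and 1 rose at 120 mg/kg of p-toluidine (all probe sets: 5.53% fell and 4.27% rose, and 5.07% and 5.68%), with medians of -0.09 and -0.06. Mrps2 changed most, by -0.58 and -0.55. At 60 mg/kg of DMPT 22 fell (all probe sets: 3.26%), and 6 without the narrow arrays. For 120 mg/kg of DMPT the count without the narrow arrays is not given here either.

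Among 13 other transcripts taken as carrying a TOP tract, whose sequences were not searched here, 1 rose and 1 fell at 120 mg/kg of DMPT. At 120 mg/kg of p-toluidine 3 rose and 1 fell. Of all probe sets 9.8% passed after DMPT and 10.7% after p-toluidine. Those that rose after p-toluidine included the elongation factors Eef2 and Eef1g (0.37 each), and Nap1l1, a histone chaperone, rose by 0.33 after either chemical. Among 34 initiation and elongation factors, 1 rose and 6 fell after DMPT and 4 rose and 4 fell after p-toluidine at 120 mg/kg, where 4.27% of all probe sets rose and 5.53% fell after DMPT and 5.68% rose and 5.07% fell after p-toluidine. The falls after DMPT numbered 2 without the narrow arrays. Eif2b2, a subunit of the exchange factor of eIF2, rose after both (0.44 and 0.39), and Eif1b, a paralog of the start codon factor Eif1, fell after both (-0.27 and -0.51).

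Of 21 genes that control ribosome supply, 3 fell after 120 mg/kg of DMPT (1 without the narrow arrays), and 4 rose and 1 fell after p-toluidine. Of all probe sets 5.53% fell after DMPT, and 5.68% rose and 5.07% fell after p-toluidine. Eif4ebp1, the mTOR target that holds back cap-dependent translation, rose by 0.62 ± 0.12 after p-toluidine (limma, adjusted p = 0.000754), and Sesn3 by 0.46. Sesn2 and Akt1s1 fell after DMPT (-0.42 and -0.33), while Myc did not pass after either (-0.44 and 0.43, adjusted p of 0.536 and 0.671). Of 11 genes of ribosome quality control, 3 rose after DMPT and 2 after p-toluidine (all probe sets: 4.27% and 5.68%), led by Pelo, which rescues stalled ribosomes (0.48 and 0.45).

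Markers of hepatocytes and 8 other cell types were measured at 120 mg/kg, where 9.8% of all probe sets passed after DMPT and 10.7% after p-toluidine. Of 5 cholangiocyte markers 1 rose after each chemical, Epcam, an epithelial adhesion protein, by 1.47 and 1.84 (limma, adjusted p of 3.76e-09 and 2.9e-12), while Krt7, Krt19, Spp1 and Cftr did not pass. The summed cholangiocyte level (log2) went from 5.87 to 6.33 on the DMPT vehicle arrays to 6.93 to 7.22, and from 4.95 to 5.55 on the p-toluidine vehicle arrays to 6.14 to 6.54, with no overlap in either. Such a sum adds linear values and so mostly follows the brightest marker. Here that was Epcam, with vehicle means of 5.28 and 4.20, against 3.72 and 2.94 for Spp1, the next brightest. The rise of the sum is therefore no result apart from that of Epcam. Of 8 stellate cell markers 1 rose (Rgs5, 0.43) and 1 fell (Reln, -0.37) after DMPT, and 2 fell after p-toluidine (Reln, -0.49, and the collagen gene Col3a1, -0.40). The summed stellate level overlapped between groups for DMPT and lay below the vehicle range for p-toluidine, at 9.27 to 9.75 against 9.79 to 10.00. It mostly follows Col3a1, the brightest stellate marker, with vehicle means of 9.85 (DMPT) and 9.45 (p-toluidine).

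Of 6 erythroid markers 1 rose after DMPT (Ahsp, the alpha globin chaperone, 0.64) and 2 after p-toluidine (Ahsp, 0.57, and Slc4a1, the red cell anion exchanger, 0.62). The summed erythroid level overlapped between groups, at 11.0 to 11.3 on the p-toluidine vehicle arrays and 11.0 to 11.6 at 120 mg/kg, and for DMPT at 11.1 to 11.8 and 11.5 to 12.0. Hbb, with vehicle means of 11.4 (DMPT) and 11.1 (p-toluidine), outweighs the other erythroid markers in that sum. Of 6 pancreatic acinar markers Cela1 fell after both (-0.48 and -0.84) and no other passed. The summed level of the 6 for p-toluidine was 7.03 to 7.26 on vehicle arrays and 6.24 to 6.76 at 120 mg/kg, without overlap. Cela1 alone carries that sum of linear values. Its p-toluidine vehicle mean was 7.03 (log2), against 1.84 for Pnlip, the next brightest of the 6. Of 12 lymphocyte markers 1 rose after DMPT (Cd3d, 0.25) and none passed after p-toluidine (1 at an unadjusted p under 0.05, limma), and of 11 hepatocyte markers 1 fell after each. No marker of Kupffer cells (8), neutrophils (5) or sinusoidal endothelium (5) passed after either chemical by limma, with 0, 0 and 1 at an unadjusted p under 0.05 after DMPT and 2, 0 and 0 after p-toluidine. The part of these cell types in the rise of the ribosomal protein genes was not tested.

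Of the 9 members that rose at 120 mg/kg of p-toluidine and have a start sequence, 6 carried the pyrimidine run, as did 21 of the 29 others.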

How the data were processed

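RNA of rat liver was measured on Affymetrix arrays, 5 per group. Per the submitters' processing notes, the authors used RMA, with the version not given in the sources used here. Values as deposited by the authors run from 0.0507 to 13.9 and were taken as log2 from their range. The labels name a dose-series method that was not used here. RMA pulls arrays to one distribution, so a shift shared by all genes cannot be seen.

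From these values, group-mean models were fitted per chemical with limma 3.58.1 in R 4.3.3 (lmFit and eBayes) on 31042 probe sets after leaving out 57 control probe sets, and p-values were adjusted by Benjamini-Hochberg. Trends used the rank of the dose, and differences between the responses used all 60 arrays. The fits were tested on simulated data. Of the probe sets, 20826 carry 1 symbol, 436 several and 9780 none. Named genes were those with the largest changes at 120 mg/kg, those that passed at other doses, the brightest and dimmest, and paralogs and pseudogenes. Rps15a and Rps3a were added after their values were seen. Members and lists were chosen with earlier results of these data known. Narrow arrays were told apart by a gap of 0.03 in SD, a limit set after seeing the data. No 2 arrays held identical values. Alternatives changed normalization, arrays fitted, probe set choice, brightness filter, replicate block, array weights, the actin covariate and the prior.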

Additional observations from a re-analysis of the deposited data

Results flagged for a closer look

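Dixon's test was run on 134 groups of 5 arrays, taken from the named genes, Rps24 and the mean over the bright members. In 8 of them a single array lay far from the other 4, where chance gives about 1 group in 20. At 120 mg/kg of p-toluidine replicate 5 was the high array for 4 genes: Rpl37a at 10.89 (log2, next array 10.68), Rplp0 at 10.82 (next 10.61), Rps15 at 9.87 (next 9.69) and Rps4x-ps1 at 0.81 (next 0.56). In the same group Rpl28 had a low array at 0.83 (replicate 1, next 1.01), and Rpl39 had one at 4.21 (replicate 2, next 4.34). Among the p-toluidine vehicle arrays, Rpl7a had a high array at 11.29 (replicate 5, next 11.01), and Rps4y2 had a low one at 3.96 (replicate 2, next 4.73).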

How the results depend on the processing

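Apart from leaving out 1 replicate at a time, 137 counts stayed within 1.5 times and 20 moved. The causes were not tested. The DMPT count at 60 mg/kg (3) was 1 with only the arrays compared, with the replicate block, with array weights and without the narrow arrays. Averaging a gene's probe sets, the DMPT counts at 20, 60 and 120 mg/kg (3, 3 and 2) were 5, 5 and 4. Array weights gave 5 at 20 mg/kg. At 120 mg/kg of DMPT the count was 1 above the median brightness and without the narrow arrays. Among the 38 bright members it was 0. The DMPT trend count (3) was 5 after quantile normalization. The p-toluidine count at 120 mg/kg (10) was 5 with only the arrays compared and 6 with the actin covariate, and at 60 mg/kg (0) it was 1, Rps4y2, with the replicate block and with array weights. Probe sets with several symbols gave 1, 1 and 0 at 20, 60 and 120 mg/kg of DMPT and 5 at 120 mg/kg of p-toluidine. This set and that of the bright members were chosen after seeing the data. Replicate numbers are shared between groups. Correlations were taken between arrays of different doses, after the mean of each dose group was subtracted for every probe set. Samples of one number then had a median correlation of 0.00726 (DMPT, from -0.391 to 0.415) and -0.0101 (p-toluidine, from -0.335 to 0.373). Samples of different numbers had medians of -0.00254 and 0.00715. By the same measure, the closest array at another dose had the same number for 10 of 30 DMPT and 4 of 30 p-toluidine arrays. Each other dose holds 1 array of the same number among its 5. A median cannot show whether single samples of one number are linked, and this was not tested.

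Leaving out 1 replicate at a time gave 3 to 13 calls at 120 mg/kg of p-toluidine, 1 to 3 at 20 mg/kg, 1 to 4 at 60 mg/kg and 1 to 2 at 120 mg/kg of DMPT, and 0 to 1 for the difference at 20, 60 and 120 mg/kg. Of single genes, 13 values lost and 1 gained a call under the other alternatives. The dim probe sets (Rpl28, Rpl30, Rps13 and Rps4x-ps1) limit what can be said of those genes, and 5 arrays per group limit the precision of all.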
